A study of Rattus norvegicus with 15 samples.

Results

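Abcg5 and Abcg8 encode the paired half-transporters that export cholesterol and plant sterols from hepatocytes into bile. They are treated here with 5 further genes known as targets of the liver X receptors (LXRs): Abca1, Abcg1, Lpcat3, Smpdl3a and Pltp. Liver messenger RNA of female rats of the Wistar strain Crl:WI, 2 to 3 months old, was hybridised to one-colour arrays, each rat to its own array. By mouth, 8 rats received fipronil, a phenylpyrazole insecticide, at 3 mg/kg per day for 14 days, and 7 rats received the methylcellulose and Tween 80 vehicle in the same way. The genes were taken by name, as every non-control probe whose current symbol or older alias was one of the 7. This gave 9 of 41012 probes, for 7 of 15172 gene symbols. Abcg8 and Pltp had 2 probes each, and Lpcat3 was listed under its older name Oact5.

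The set was chosen by the measured difference between fipronil and vehicle rats in Abcg5 and Abcg8, to which known LXR targets were joined. Differences between the groups are therefore given for the 7 genes as values with their errors. Where the text says whether such a probe passed the fit over all probes, that is a description and nothing is read from it. Relations across rats within a group, which that choice did not use, were tested, as were the other genes of the pathway.

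LXRalpha (Nr1h3) and LXRbeta (Nr1h2) are nuclear receptors that bind oxysterols and act as heterodimers with a retinoid X receptor (RXR). In liver their targets cover biliary sterol export, cholesterol efflux to lipoproteins, phospholipid remodelling and fatty acid synthesis. Abcg5 and Abcg8 lie head to head on opposite strands and share the short stretch between their start sites, where orphan nuclear receptors and GATA factors are known to act on both genes.

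That shared stretch is shown because a single piece of DNA lies upstream of the pair that differed most among the 7 genes. In the RefSeq promoter table (assembly GRCr8), the starts of Abcg5 (plus strand) and Abcg8 (minus strand) were separated by 205 bases, chr6:15717731-15717935, printed 5′ to 3′ on the plus strand, so that it runs from the Abcg8 start towards the Abcg5 start. Capitals mark the GATA core GATAA:

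Abcg5 and Abcg8 intergenic: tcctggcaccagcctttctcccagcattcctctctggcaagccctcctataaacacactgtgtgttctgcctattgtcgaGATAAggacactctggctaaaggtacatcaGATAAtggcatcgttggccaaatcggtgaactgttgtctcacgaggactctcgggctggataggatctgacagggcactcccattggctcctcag

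The table's windows of 300 bases (250 before and 50 after a start) of the 2 genes overlapped over 295 bases, and 52.2% of the bases between the starts were G or C. GATAA occurred at 2 places on this strand. They began 125 and 95 bases before the Abcg5 start. Searched on both strands, GATAA was present in 26.5% of the 33469 promoter windows, so that its presence is common. The nuclear receptor half-site AGGTCA was found in 16.2% of windows. The half-site with the 5′ extension bound by Nr5a2, CAAGGTCA, was found in 1.52%. The direct repeat of that half-site with 4 free bases between (DR4), the kind of site read by LXR and RXR and here in its strictest form, was found in 0.00598%, and the repeat with 1 free base between (DR1) in 0.0538%. CAAGGTCA and both repeats contain the half-site and so overlap with it. None of these 4 patterns was in the windows of Abcg5, Abcg8, Abca1, Lpcat3 or Pltp. The Smpdl3a window held 2 AGGTCA half-sites. Abcg1 had no entry. A match or its absence concerns only these letters in this window.

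Signal is the log2 of the intensity minus the log2 of the array's 75th percentile over all probes. That percentile lay between 185 and 269.5 intensity units on fipronil arrays and between 115 and 214 on vehicle arrays. The ranges overlapped, but vehicle replicates 2, 5, 6 and 7 (158, 159, 162 and 115) lay below every fipronil array. Array brightness thus went partly with treatment. Between 50.7% and 59.5% of probes on an array were well above background. Every one of the 4 slides carried arrays of both groups. Among the liver markers, 7 of 7 hepatocyte genes with a probe were above background on all 15 arrays, 5 of them saturated on some or all arrays. Of the hepatocyte probes, 0 of 13 passed limma's adjusted threshold of 0.05, against 0.821% of all tested probes. The unsaturated hepatocyte genes Cps1 and Tat differed by -0.02 and -0.14 (limma adjusted p = 0.960 and 0.587). In whole liver, fewer cells of a type and less RNA per cell cannot be told apart.

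Across all 23256 probes that were well above background on at least 7 arrays, 191 differed between the groups by limma at an adjusted p under 0.05 (0.821%), 124 of them higher (0.533%) and 67 lower (0.288%) with fipronil. The median difference over all of these probes was -0.02. With array brightness as a covariate, 42 probes passed. Of the 9 probes of the 7 genes, 8 were well above background on enough arrays to enter that fit, and 2 were among the 191, both higher. These were Abcg5 and 1 probe of Abcg8, the values for which the genes were chosen, so nothing is read from that count. The Abcg8 probe entered the fit through the fipronil arrays. The median difference over the 8 probes was 0.16. The limma p-values reflect the spread between rats within a group, drawn towards that of all probes. The p-values of correlations come from re-pairing the rats of a group.

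Abcg5 supplies one half-transporter of the sterol exporter. Its probe (rn4, chr6:8028067-8028126) had signals from 4.16 to 5.46 with fipronil (median 5.02, n = 8) and from 0.02 to 2.20 with vehicle (median 1.58, n = 7). Every fipronil rat lay above every vehicle rat. The same was true of 0.374% of all tested probes. The means were 4.88 ± 0.45 (SD, n = 8) and 1.24 ± 0.89 (SD, n = 7). The difference was 3.64 (SE 0.32, 95% interval 2.95 to 4.32), a fold of 12.4 (7.74 to 20.0). On the intensity scale the fipronil arrays read 3465 to 9103 and the vehicle arrays 117 to 848, all above background and none saturated.

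Abcg8 supplies the other half-transporter. Its first probe (rn4, chr6:8077904-8078127) had signals from -1.48 to 0.30 with fipronil (median -0.28, n = 8) and from -5.33 to -3.08 with vehicle (median -4.48, n = 7). These groups also did not overlap. The means were -0.45 ± 0.60 (SD, n = 8) and -4.18 ± 0.85 (SD, n = 7). The difference was 3.73 (SE 0.34, 95% interval 3.01 to 4.45) on the background-subtracted scale. The probe was well above background on 8 of 8 fipronil arrays but on only 2 of 7 vehicle arrays, those of replicates 2 and 3. Vehicle intensities ran from 2.88 to 23.2 after background subtraction, against 69.5 to 245 with fipronil, so the size of the difference rests on how the background was removed and no fold is given. With normexp background correction, which here added an offset of 50 intensity units to every value, and quantile normalization the Abcg8 difference was 1.38. The same fit on the authors' deposited table, in which background was not subtracted, gave 1.57. The direction was the same under each of these.

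The second Abcg8 probe (rn4, chr6:8082883-8082942) was not well above background on any of the 15 arrays. Its mean signals were -6.06 with fipronil and -5.46 with vehicle, and it was not tested. The statements on Abcg8 thus rest on 1 probe.

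**Figure D1:**
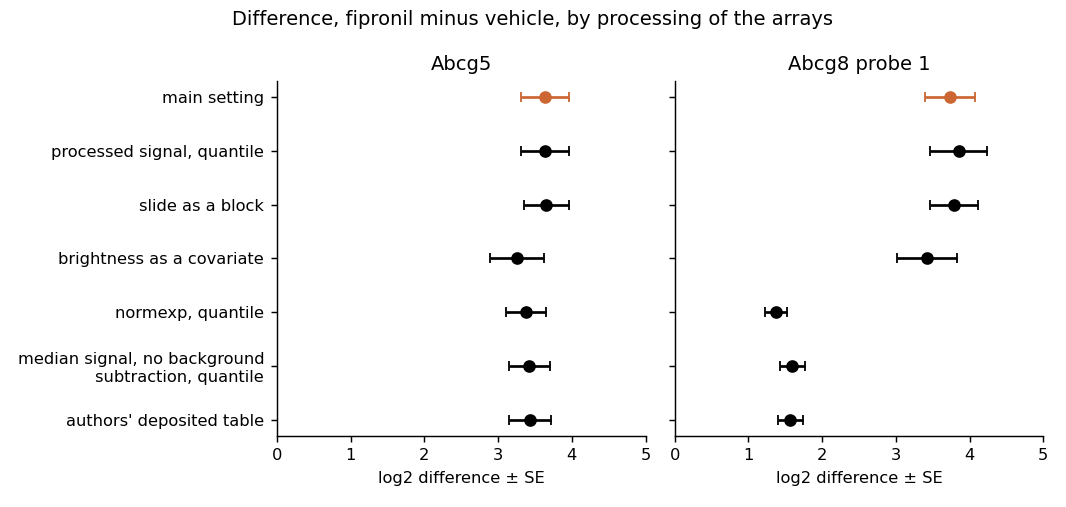
Difference between fipronil and vehicle rats (log2, x axis, bars are SE) for Abcg5 and the first Abcg8 probe under 7 ways of processing the arrays. Abcg5 stays between 3.26 and 3.65. Abcg8 lies at 1.38 to 1.60 where the background was not subtracted or was corrected by normexp with an offset of 50 units.

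Slides were scanned with both groups on each. Abcg5 differed by 3.64 on slide 1, 3.42 on slide 2, 2.04 on slide 3 and 4.96 on slide 4. For the first Abcg8 probe the differences were 3.64, 3.85, 2.48 and 4.74 on slides 1 to 4. Both genes thus had their smallest difference on slide 3, which held 2 fipronil rats and 1 vehicle rat, and their largest on slide 4. With array brightness as a covariate the differences were 3.26 for Abcg5 and 3.42 for Abcg8.

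**Figure D2:**
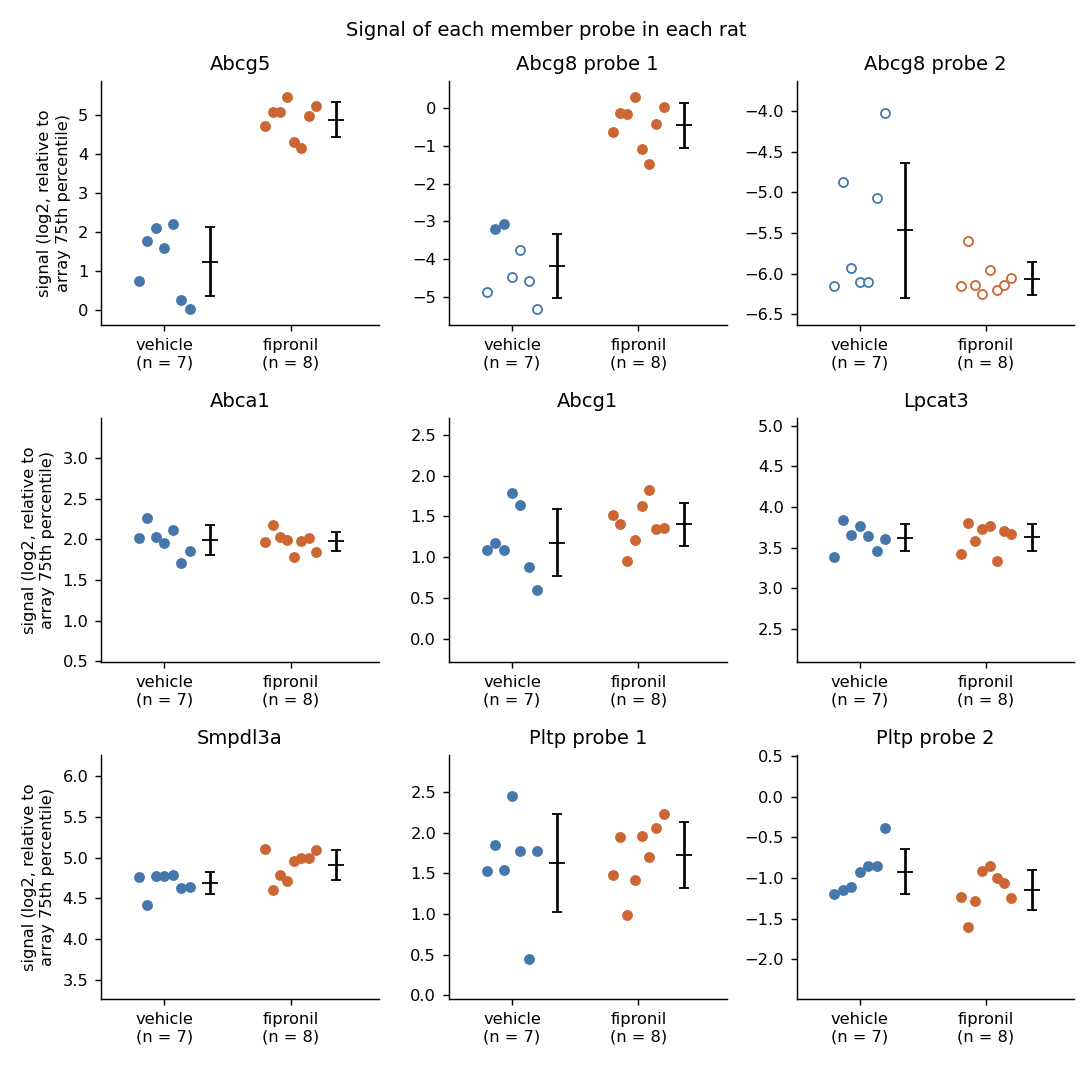
Signal (log2, relative to the 75th percentile of the array) of each of the 9 probes in each rat, with mean and SD beside the points. Filled points are above background and open points are not; the groups are apart for Abcg5 and the first Abcg8 probe and overlap for the other probes.

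The 5 other genes had much smaller differences. Abca1 loads cholesterol and phospholipid onto lipid-poor apolipoprotein A-I. Its signals ran from 1.78 to 2.17 with fipronil (median 1.99, n = 8) and from 1.71 to 2.27 with vehicle (median 2.01, n = 7), with the fipronil range inside the vehicle range. The difference was -0.02 (SE 0.09, 95% interval -0.20 to 0.17). An increase of Abca1 above 1.123-fold lies outside this interval, as does a fall below 0.868 of the vehicle level.

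Abcg1 exports cholesterol to mature high-density lipoprotein. Its signals ran from 0.95 to 1.82 with fipronil (median 1.39, n = 8) and from 0.59 to 1.78 with vehicle (median 1.09, n = 7). The groups overlapped almost completely, and 1 fipronil rat exceeded the highest vehicle rat. The difference was 0.23 (SE 0.17, 95% interval -0.12 to 0.58).

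Lpcat3 inserts polyunsaturated fatty acids into membrane phospholipids. Signals were 3.34 to 3.80 with fipronil (median 3.69, n = 8) and 3.39 to 3.84 with vehicle (median 3.65, n = 7). The 2 ranges were nearly the same. The difference was 0.00 (SE 0.09, 95% interval -0.19 to 0.20).

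Smpdl3a is a secreted phosphodiesterase related to acid sphingomyelinase. Its signals were 4.61 to 5.10 with fipronil (median 4.98, n = 8) and 4.42 to 4.79 with vehicle (median 4.77, n = 7). The ranges overlapped, although 6 of 8 fipronil rats lay above the highest vehicle rat. The difference was 0.22 (SE 0.09, 95% interval 0.03 to 0.42), a fold of 1.17, and it was not among the 191 probes.

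Pltp moves phospholipid between lipoproteins. Its first probe (rn4, chr3:155877758-155879914) ran from 0.99 to 2.22 with fipronil (median 1.83) and from 0.45 to 2.45 with vehicle (median 1.77), a difference of 0.10 (SE 0.24, 95% interval -0.41 to 0.61). Its second probe (rn4, chr3:155871685-155871744) ran from -1.60 to -0.85 and from -1.20 to -0.38, a difference of -0.23 (SE 0.13, 95% interval -0.50 to 0.05). The 2 probes differ in sign, and both intervals include 0, so no direction is given for Pltp.

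**Figure D3:**
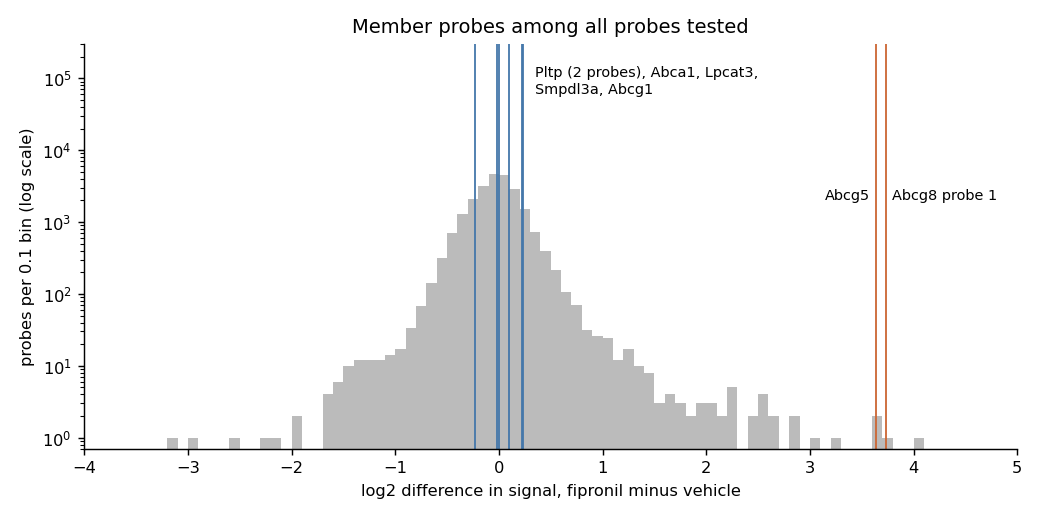
Number of tested probes (log scale, y axis) by log2 difference between fipronil and vehicle rats (x axis, bins of 0.1), with vertical lines at the 8 tested probes of the 7 genes. Abcg5 (3.64) and Abcg8 (3.73) stand at the far right, and the other 6 lines lie between -0.23 and 0.23.

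Rats with more Abcg5 signal also had more Abcg8 signal within the fipronil group. Fipronil replicate 4 was highest for both genes, at 5.46 for Abcg5 and 0.30 for Abcg8. Replicate 6 was lowest for both, at 4.16 and -1.48, followed by replicate 5 at 4.32 and -1.09. The order of the 8 rats was identical for the 2 genes (Spearman's rho = 1.00, exact permutation p = 4.96e-05, adjusted p = 0.00208). Pearson's r was 0.994 (two-sided exact permutation p = 2.48e-05, the smallest that 8 rats can give, adjusted p = 0.00104 over 42 pairs of genes in both groups).

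The relation did not rest on the extreme rats, since r was 0.987 without the 2 fipronil rats farthest from the median of Abcg5. Replicates 5 and 6 shared slide 3. With slide means removed r was 0.944, and with array brightness removed it was 0.974. Once slide means are removed, the values of rats on the same slide depend on each other. Free re-pairing of rats then gives no exact p, so none is given for the r with slide means removed. Whether the relation holds within slides was thus not tested. Without slide 3, r over the 6 remaining rats was 0.987, but the exact permutation p adjusted over the pairs was 0.175. Both probes sit on the same arrays and share their scaling, so array effects enter both signals.

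**Figure D4:**
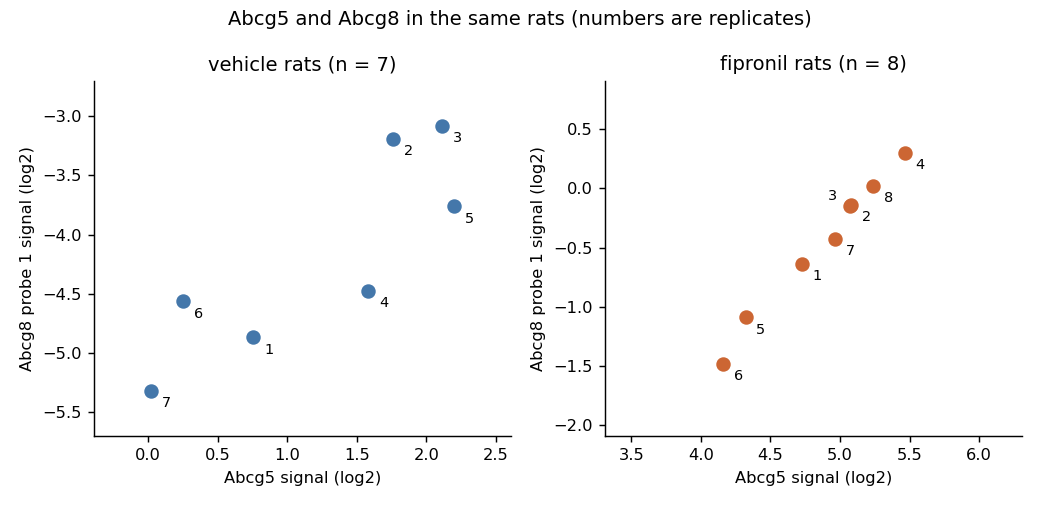
Signal of the first Abcg8 probe (y axis, log2) against that of Abcg5 (x axis, log2) in each rat, numbered by replicate, for 7 vehicle rats and 8 fipronil rats. The fipronil rats lie close to a line (r = 0.994); the vehicle rats scatter more (r = 0.85), with 2 of 7 Abcg8 values above background.

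Among vehicle rats r was 0.85 for the same pair (exact permutation p = 0.0252, adjusted p = 0.265), rho was 0.86 (exact permutation p = 0.0238, adjusted p = 0.321), and r was 0.79 without the 2 farthest rats. Replicates 7, 6 and 1 were low for both genes, with Abcg5 at 0.02, 0.25 and 0.76. This relation did not pass the adjustment, and 5 of its 7 Abcg8 values were not above background. The difference in r between the groups was not tested.

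The other genes were compared across rats in the same way. In fipronil rats 1 of 21 pairs passed after adjustment, the pair of Abcg5 and Abcg8, and 3 had an unadjusted exact permutation p under 0.05. The other two were Abcg1 with Abcg5 (r = -0.80, exact permutation p = 0.0164, adjusted p = 0.229) and Abcg1 with Abcg8 (r = -0.82, exact permutation p = 0.0129, adjusted p = 0.229). Without the 2 farthest rats these values were -0.42 and -0.46, weaker but of the same sign, and these were not tested. In vehicle rats 0 of 21 pairs passed, and 2 had an unadjusted exact permutation p under 0.05. The second was Abcg5 with Abca1 (r = 0.75, exact permutation p = 0.0486, adjusted p = 0.408), which was 0.30 without the 2 farthest rats.

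Likeness over all 15 rats was ranked among named probes well above background on every array, which leaves out Abcg8 (r = 0.88 with Abcg5). The probes of that set whose signal varied most like Abcg5, after the mean of each group was removed, were Ipp (r = 0.93), Tmed1 (0.84), Igsf5 (0.82), Fads1 (0.82) and Sap30bp (0.82), among 11105 probes compared. Those most like Abcg8 were Abcg5 (r = 0.88), Tubg1 (0.84), Ebna1bp2 (0.82), Pwp1 (0.80) and Sap30bp (0.79). Within the 8 fipronil rats, a ranking added after the data were seen, Abcg8 was first of 20759 probes by its correlation with Abcg5, and Abcg5 was first by its correlation with Abcg8 (r = 0.994). The next probe was Ipp in both rankings, at 0.973 and 0.963. These correlations share arrays and scaling and are given as descriptions.

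The rest of the pathway was read from 8 lists of 71 genes. A probe was found for 68 of them, and 63 genes had a probe that could be tested. Of these 88 probes 0 were higher and 1 was lower with fipronil by limma at an adjusted p under 0.05, and the number that passed was 0 to 2 under the alternatives. The median difference was -0.01, against -0.02 for all probes tested, and the groups overlapped for all 88. Over all tested probes 0.821% passed and the groups were apart for 0.598%. Lists of this size would hold few or no such probes at those shares. The counts here and in the lists below are therefore descriptions, and nothing is read from them. No probe was found for Arl4c, Npc1 and Abca9.

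**Figure D5:**
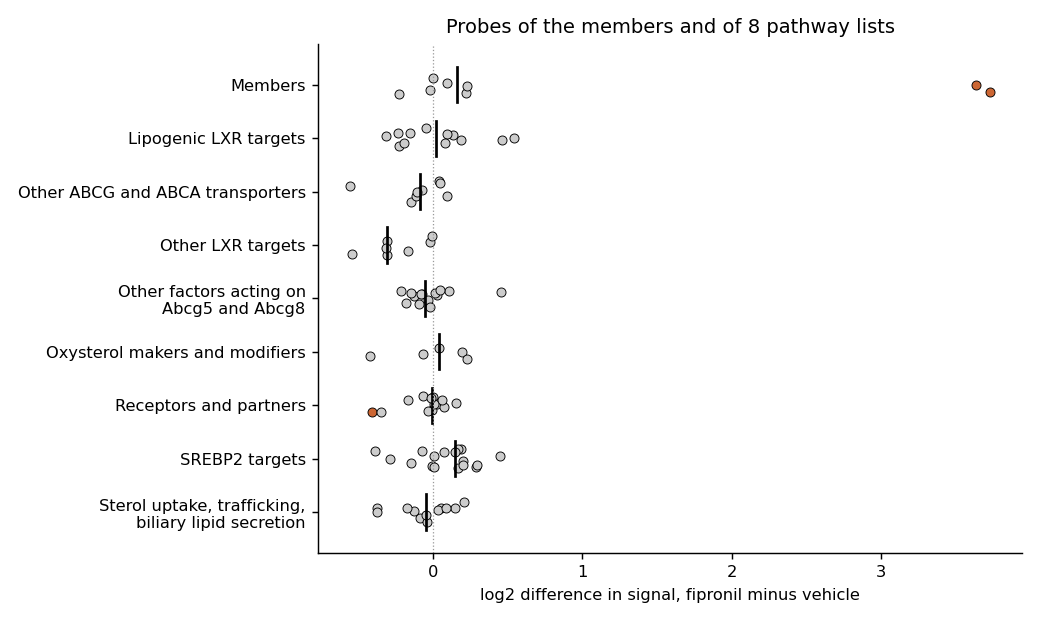
Log2 difference between fipronil and vehicle rats (x axis) of every tested probe of the 7 genes and of 8 pathway lists; vertical bars are list medians and filled orange points passed the adjusted threshold. Abcg5 and Abcg8 lie near 3.7 and every pathway probe lies between -0.55 and 0.54.

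The 13 tested probes of the receptors and their partners had a median difference of -0.01. LXRalpha (Nr1h3) ran from 5.61 to 6.14 with fipronil (median 5.83) and from 5.66 to 5.95 with vehicle (median 5.78), a difference of 0.06 (SE 0.09, 95% interval -0.12 to 0.25, limma adjusted p = 0.762). LXRbeta (Nr1h2) differed by -0.16 (SE 0.08, 95% interval -0.34 to 0.01, limma adjusted p = 0.321). The RXR genes Rxra, Rxrb and Rxrg differed by 0.01, -0.07 and, for the 2 probes of Rxrg, -0.03 and -0.01. The messenger RNA of the receptors thus did not pass the test in either direction.

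Ncor1, a corepressor that nuclear receptors recruit, differed by 0.03, 0.08 and 0.15 at its 3 probes, and the coactivator Ncoa1 by 0.00 and -0.01 at its 2 probes.

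Among lipogenic LXR targets, 0 of 12 probes passed and the list median was 0.02. The lipogenic regulator Srebf1 differed by 0.09 and 0.08 at its 2 tested probes. Fatty acid synthase (Fasn) differed by -0.31 and -0.23, acetyl-CoA carboxylase (Acaca) by -0.15 and -0.22, and stearoyl-CoA desaturase (Scd) by 0.13 with a wide interval of -1.19 to 1.46.

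In the list of other LXR targets 0 of 7 probes passed. Its median was -0.30. The probes of the apolipoprotein genes Apoe, Apoc1 and Apoc2 were saturated on all 15 arrays, so that no difference is given for them and the list median, in which they count, is not a measure of the list. Cyp7a1, the rate-limiting enzyme of bile acid synthesis, differed by -0.54 (SE 0.45, limma adjusted p = 0.588). The efferocytosis receptor Mertk differed by -0.01. Mylip, an LXR target that degrades the low-density lipoprotein receptor, was above background on 0 of 15 arrays, and Apod on 2 of 15.

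Enzymes that make or modify oxysterols, the ligands of LXR, gave 0 of 5 probes past the threshold and a list median of 0.04. The sterol 27-hydroxylase Cyp27a1 differed by 0.19, the cholesterol 25-hydroxylase Ch25h by -0.07 and the oxysterol 7-hydroxylase Cyp7b1 by 0.04. The sulfotransferase Sult2b1 differed by -0.42 (SE 0.19, limma adjusted p = 0.260) and was above background on 5 of 8 and 5 of 7 arrays.

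Other nuclear receptors and factors known to act on the 2 transporter genes gave 0 of 14 probes past the threshold, with a list median of -0.05. Nr5a2 (liver receptor homolog), known to bind the shared promoter, differed by -0.02 (95% interval -0.26 to 0.21). Hnf4a differed by 0.03 and -0.08, and Gata4, which encodes a factor that binds GATA sites, by -0.18 (limma adjusted p = 0.534). The bile acid receptor Nr1h4 (FXR) differed by 0.46 (SE 0.15, limma adjusted p = 0.152), the largest difference of this list. The xenobiotic receptors Nr1i2 (PXR) and Nr1i3 (CAR) differed by -0.03 and, at the 2 probes of Nr1i3, by 0.01 and 0.05.

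Genes of sterol uptake, trafficking and biliary lipid secretion gave 0 of 12 probes past the threshold, with a list median of -0.04. Apoa1 was saturated on 8 fipronil and 3 vehicle arrays and Scp2 on 8 and 4, and both count in that median. The canalicular phospholipid and bile salt pumps Abcb4 and Abcb11, whose products enter bile together with sterol, differed by 0.06 (95% interval -0.22 to 0.34) and 0.21 (95% interval -0.04 to 0.46). The lipoprotein receptor Scarb1 differed by 0.04 and 0.09. The cholesterol esterifying enzyme Soat2 differed by -0.37 (SE 0.11, limma adjusted p = 0.102). Npc1l1, which takes up sterols against the direction of Abcg5 and Abcg8, was above background on 0 of 15 arrays.

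Targets of SREBP2, which rise when cell sterol is low, gave 0 of 17 probes past the threshold and a list median of 0.15. The other ABCG and ABCA transporters gave 0 of 8 probes past the threshold and a median of -0.09. The xenobiotic efflux pump Abcg2, a member of the same subfamily as Abcg5 and Abcg8, differed by -0.55 (SE 0.23, limma adjusted p = 0.233).

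Enterocytes also carry Abcg5 and Abcg8. Of 3 enterocyte markers with a probe, Lct was above background on 0 of 15 arrays and Vil1 on 2 of 8 fipronil and 3 of 7 vehicle arrays. Fabp2 was above background on all arrays and differed by 0.19 (limma adjusted p = 0.715). The summed linear level of the 3 ranged from 4.01 to 8.29 with fipronil and from 2.98 to 6.82 with vehicle. That sum is close to Fabp2 alone, whose median signal with fipronil was 2.085, against -4.55 for Vil1 and -6.08 for Lct.

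Abca1 and Abcg1 are also active in macrophages. All 8 Kupffer cell and macrophage markers with a probe were above background on every array, with 0 of 11 probes past the threshold and a summed level of 108 to 224 with fipronil and 76.7 to 262 with vehicle. Endothelial markers, with 0 of 6 probes past the threshold, summed to 67.3 to 128 with fipronil and 56.2 to 77.2 with vehicle. Most of that sum is Kdr, whose median signal with fipronil was 6.17, against 2.19 for the next brightest marker, Lyve1. Pecam1 was above background on 1 of 15 arrays. Of the stellate cell markers, 1 of 10 probes passed. It was Rgs5, a pericyte marker, higher by 1.01 (limma adjusted p = 0.00882), while the list summed to 32.9 to 56.4 with fipronil and 33.4 to 51.6 with vehicle. Cholangiocyte markers summed to 1.90 to 3.05 and 1.45 to 2.44, and erythroid markers to 8.12 to 25.0 and 9.55 to 49.3. The part of these levels in the differences of the 7 genes was not tested.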

How the data were processed

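Liver RNA of 15 rats was labelled with Cy3 and hybridised to one-colour Agilent arrays, per the labels' protocols. The deposited files hold spot intensity values and 0 or 1 flags for saturation, outlier spots and signal well above background, written by Agilent Feature Extraction 9.5.3.1, per the file headers. The authors' deposited value table holds log2 values of 22244 probes. Each of its columns had a Spearman correlation of at least 0.99999 across probes with the median spot intensity of its array, so background was not subtracted there; how its probes were chosen is not given in the sources used here. It lacks the second Abcg8 probe.

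Outlier spots were left out and spots of a probe averaged. From the log2 of the background-subtracted intensity, the log2 of each array's 75th percentile was taken off. Each probe was kept apart. Probes well above background on at least 7 arrays and missing on at most 3 entered a two-sided limma 3.58.1 fit in R 4.3.3 (lmFit, then eBayes, with Benjamini-Hochberg adjustment over 23256 probes), and the procedure was tested on simulated data. Intervals are at the 95% level. For correlations and likeness a gene was represented by its brightest probe. Correlations across rats used exact permutation tests adjusted over 42 pairs. Precision is limited by the number of arrays, 8 and 7.

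Probe positions refer to rn4, per the file headers. No annotation of that build was used, so exons and untranslated regions are not named. Gene symbols came from a RefSeq table, by accession for 10768 probes, another accession for 276, symbol for 4994 and synonym for 3341. Promoter windows came from RefSeq GRCr8.

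The genes, the 8 pathway lists and the cell type marker lists were chosen with earlier results of these data known. The genes named are every probe of the 7 genes and members of those lists, given with the smallest p or a well known role, and the 5 probes most like Abcg5 and Abcg8. Alternatives covered background correction, normalization, filters, slide, replicate number and brightness as covariates, and leaving out each array or slide. Results for some genes of the lists are not reported here.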

Additional observations from a re-analysis of the deposited data

Results flagged for a closer look

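In 18 groups of values (9 probes in each of the 2 treatment groups), 3 had 1 rat far from the rest by Dixon's 95% criterion. Chance alone gives about 1 in 20 such groups. Smpdl3a in vehicle replicate 2 was the lowest of its group at 4.42, with the nearest rat at 4.63, a gap of 0.584 of the group's range. Leaving that array out, as with every other alternative, kept the Smpdl3a difference above 0 (0.16 to 0.31 over 33 alternatives) and outside the calls.

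The second Pltp probe in vehicle replicate 7 was the highest of its group at -0.38, with the nearest rat at -0.85. That array had the lowest 75th percentile of intensity of all 15. The second Abcg8 probe in fipronil replicate 2 was the highest of its group at -5.60, with the nearest at -5.96, and was not above background on any array.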

How the results depend on the processing

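The Abcg5 difference ranged from 3.12 to 4.01 over 33 alternatives (3.43 to 3.80 with 1 array left out) and the Abcg8 difference, over 32, from 1.38 with normexp, 1.57 in the authors' deposited table and 1.60 with median signal to 4.08 (3.54 to 3.92 with 1 array left out). Requiring all 15 arrays above background left 1 of the 7 genes' probes called, since Abcg8 was then not tested. Called probes of all tested numbered 97 with the replicate block (81 shared), 42 with brightness, 90 with no filter, 39 without slide 1, 45 without slide 4 and 102 to 307 with 1 array left out. That count moved by over 1.5 times without fipronil replicate 1, 7 or 8 or vehicle replicate 1, 2, 3 or 7. The share higher among them was 64.9%, against 81.0% with brightness, 87.2% without slide 1 and 84.4% without slide 4. Pathway probes called numbered 2 with normexp, median signal, the authors' table, quantile normalization, array weights, saturated spots left out or all 15 arrays above background. They numbered 0 with the slide block, replicate block, brightness, no filter or without slide 1, 2 or 4, and 0 to 2 with 1 array left out. The correlation of Abcg5 with Abcg8 was 0.992 to 0.996 in fipronil and 0.77 to 0.90 in vehicle rats with 1 rat left out. Without slide 3 it was 0.987 in fipronil rats and not called (exact permutation p = 0.00417, adjusted p = 0.175), but 6 rats are too few to pass alone over 42 pairs. Without slide 1, 2 or 4 the 6 fipronil rats left did pass (exact permutation p = 0.00139, adjusted p = 0.0292). Vehicle rats were then too few to be correlated, so the adjustment covered only the 21 fipronil pairs. Differences that did not pass changed sign in 7 of 33 alternatives for Abca1, 13 for Lpcat3 and 2 for the first Pltp probe, and in 1 of 32 for the second Pltp probe. With replicate numbers as a block, Abcg5 differed by 3.58 and Abcg8 by 3.66, but rats with the same number did not deviate together in every pair (correlations -0.04 to 0.37), so the numbers were not taken as pairs, although same-numbered arrays mostly shared a slide; fipronil arrays 1, 2 and 3 and vehicle arrays 2 and 3 correlated best with their own number and the others did not. The causes of these changes were not tested. Dim signal limits Abcg8, since its first probe was not well above background on 5 of 7 vehicle arrays.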
